A study of Mus musculus with 15 samples.

Results

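The genes described here are the interferon regulatory factors, the Stat genes of the interferon pathway, and the families of genes that interferons induce (Ifit, Ifitm, Ifi, Oas, Gbp, Isg15, Isg20, Mx1, Mx2, Rsad2, Usp18 and Bst2), measured in 3 vessel-associated cell populations of a mouse tumor. Members were taken by gene name. The name pattern was met by 73 genes. Of these, 69 averaged 5 normalized counts or more across the libraries and are the members, out of 25549 genes that reached this level and 53465 genes in the table. The 4 below that mean were Oas1h, Oas1d, Oas1e and Ifi44l, and each had its highest value in EVP replicate 1. RNA sequencing was done on 15 libraries, 5 from each population. All 3 populations were sorted on day 15 from B16-F0 tumors, a melanoma cell line grown in the skin, as cells without blood lineage markers that carried CD34 and GFP. The hosts were CAG-GFP mice of the C57BL/6 background, 8 to 14 weeks old and of both sexes, in which a ubiquitous promoter drives GFP, so that GFP marks any host cell and not only endothelium. The endovascular progenitor population (EVP) was low for CD31 and for VEGFR2, the transit amplifying population (TA) was intermediate for CD31 and low for VEGFR2, and the definitive differentiated population (D) was high for both. The sources do not say whether libraries of 1 replicate number came from the same mice, so the p-values below measure the spread between these libraries.

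Interferons are secreted proteins that cells release on sensing viral or misplaced nucleic acid. They bind receptors that act through Jak kinases on Stat proteins, and a complex of Stat2 and Irf9 with a partner binds the interferon response element in the promoters of its target genes. The products of those genes bind viral RNA (Ifit), block viral entry at membranes (Ifitm), make a second messenger that activates an RNase (Oas), attack vacuoles that hold microbes (Gbp), or sense DNA in the cytoplasm and nucleus (the p200 genes of the Ifi family). Interferon gamma acts in part through Irf1, and the Gbp genes are known as strong targets of this second route. In vessels, interferons are known to restrain the growth of endothelial cells.

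Members were chosen by the names of families that interferons induce, so a high share of promoters with the response element was likely from the start. Promoters of neighbouring genes of the same family are also not independent of each other. RefSeq promoters, from 250 bases before to 50 bases after a start site on GRCm38.p6, were at hand for 52 of the 69 members. The 17 members without one included every Gbp gene on chromosome 5, Gbp4 and Gbp9 among them. The core GAAANNGAA, searched on both strands, was found in the promoters of 30 of these 52 genes (57.7%), against 9.76% of 27025 genes with a promoter. By role it was found in 5 of 5 Gbp genes, 5 of 6 Ifit genes, 8 of 10 p200 genes, 3 of 4 single effectors and 4 of 7 Oas and Oasl genes, but in 2 of 7 Ifitm genes, 1 of 4 other Ifi genes and 2 of 9 regulatory factors and Stats. The element that interferon gamma uses, TTCNNNGAA, which may overlap the first motif, was found in 13 of the 52 genes (25.0%), against 9.55% of all genes. Windows of 25 bases are shown for members whose values are described below, on the strand that carries the core, with the core in capitals. The p200 genes lay side by side on chromosome 1, and windows of 5 of them are shown. Ifi205 and Ifi211 had the same core, and Ifi203, Ifi207 and Ifi208 another:
Ifi205, chr1:174031873-174031897, minus strand: aggccaggGAAATTGAAagctatga
Ifi211, chr1:173913067-173913091, minus strand: aagccaggGAAATTGAAagctatga
Ifi203, chr1:173942511-173942535, minus strand: gagctgggGAAATCGAAagctatga
Ifi207, chr1:173741834-173741858, minus strand: tagccaggGAAATCGAAaattaaga
Ifi208, chr1:173673599-173673623, plus strand: tctctgagGAAATCGAAagctatga
In the Ifit cluster on chromosome 19, Ifit2 had no core, and the 5 other genes each had a promoter with several cores. Ifit1 and Ifit1bl2 start close together in opposite directions and share them, and Ifit3 and Ifit3b carried identical windows:
Ifit1 and Ifit1bl2, chr19:34640797-34640821, minus strand: agcagtgaGAAACTGAAactgagac
Ifit3, chr19:34583400-34583424, minus strand: ggaaagtaGAAACTGAAacagactt
Ifit3b, chr19:34607796-34607820, minus strand: ggaaagtaGAAACTGAAacagactt
Members of other families are shown to compare genes that differed between EVP and D (Isg15, Ifitm3, Oas1a, Oas3) with genes that did not pass the test (Gbp2, Bst2, Rsad2):
Isg15, chr4:156200874-156200898, minus strand: aggaaaagGAAACCGAAacagaaaa
Ifitm3, chr7:141010709-141010733, minus strand: acttctgaGAAACCGAAactgccgc
Oas1a, chr5:120907523-120907547, minus strand: gggaaatgGAAACTGAAaatctact
Oas3, chr5:120777718-120777742, minus strand: agggaggaGAAAACGAAagtgaagg
Gbp2, chr3:142620597-142620621, minus strand: aagacagtGAAAGTGAAactaaaag
Bst2, chr8:71537580-71537604, minus strand: aggaaaatGAAACTGAAaggctgca
Rsad2, chr12:26456555-26456579, plus strand: tgttttctGAAAATGAAagttggac
The core was present on both sides of that divide. It was found in 14 of 21 members higher in EVP than in D, in 16 of 29 members not called between these populations and in 0 of 2 members higher in D (Irf3 and Irf8), counting those with a promoter.

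**Figure D1:**
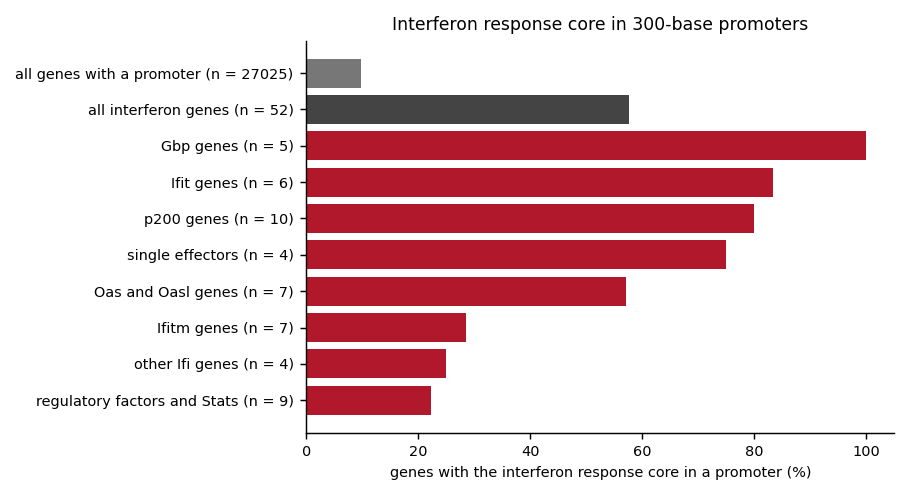
Share of genes with the interferon response core in a 300-base promoter, in percent, for all genes, for all interferon genes and for each role group, with the number of genes that had a promoter in brackets. The core was found in 57.7% of the interferon genes and in 9.76% of all genes.

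The libraries held 5394356 to 26513073 reads on genes, and EVP replicate 1 had the fewest. The libraries differed by replicate number. Between 75.9% and 96.2% of olfactory receptor genes had a read in number 1, 13.6% to 65.1% in numbers 2 and 3, with 55.4% in EVP replicate 2, and 2.70% to 4.55% in numbers 4 and 5. Gm10800 took 8.50% to 10.6% of reads in number 1 and at most 0.701% in the others. Over all tested genes the median difference between EVP and D was 0.46 on the log2 scale, and it was 0.00 without EVP replicate 1. Of the sort markers, Pecam1 (CD31) averaged 260.1 normalized counts in EVP, 6242 in TA and 24244 in D, the order of the gates. Kdr (VEGFR2) averaged 412, 4199.7 and 19832. It was called higher in TA than in EVP (limma adjusted p = 0.0166), although both were gated low for VEGFR2. TA replicate 5 was at 372 for Pecam1 and 408 for Kdr, inside the EVP ranges (119 to 613 and 94.1 to 712). Over all tested genes, EVP replicate 5 correlated more with TA replicate 5 (0.9790) than with EVP replicate 4 (0.9689). Of 8 endothelial markers 7 passed the test as lower in EVP than in D, with sums of 2216 to 4089.7 in EVP, 5562 to 62394 in TA and 87259.7 to 142473 in D. The opposite held for 7 of 7 fibroblast markers, which summed to between 803484 and 1446099 in EVP, 186627 and 600248 in TA and 979 and 4047 in D. Markers of some other cell types also moved with the populations. Called higher in EVP than in D were 4 of 6 mural, 4 of 6 mast cell and 4 of 6 keratinocyte markers. The share over all genes tested was 11.6%. Kit, of the mast cell list, and Zbtb46, of the dendritic cell list, were called lower. Elsewhere, 0 of 7 pan-leukocyte, 1 of 10 macrophage and monocyte and 1 of 7 dendritic cell markers were called higher. So were 1 of 12 lymphocyte, 1 of 7 melanoma and 0 of 3 erythroid markers. Higher in TA than in D were 5 mural, 5 mast cell, 6 keratinocyte, 5 of 7 pan-leukocyte and 7 of 7 melanoma markers. The share over all genes tested was 8.21% in that direction. No marker of the endothelial or fibroblast list was at 0 in all libraries of a population. In bulk samples such as these, fewer cells of a type and less RNA per cell cannot be told apart, and the part of RNA from these cell types in the differences below was not tested.

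The first comparison asked which interferon genes differed between EVP and D, the ends of the series of sorted populations. Of the 69 members, 28 passed as higher in EVP and 4 as higher in D (limma, Benjamini-Hochberg adjusted p under 0.05 over all 25549 genes tested). Of all genes tested, 11.6% were called higher in EVP and 7.46% higher in D, so that 40.6% of the members stood against 11.6% in the first direction and 5.80% against 7.46% in the second, with 19.0% of all genes called in either. The members were not matched to all genes by level, and 4783 of 16661 genes with a mean of at least 20 were called. For 30 members the libraries of the 2 populations did not overlap, against 17.7% of all genes tested. The median difference of the members was 1.25 on the log2 scale, against 0.46 over all genes tested, and 0.81 against -0.05 after quantile normalization. Among the 28, the ratio of mean normalized counts ran from 1.68 for Stat2 to 375 for Ifi205, and it was at least 10 for 9 genes (Ifi205, Irf4, Ifi27l2a, Ifitm6, Oas3, Ifi207, Ifitm1, Mx1 and Oas2). The 4 members higher in D were Irf3, Irf8, Gbp4 and Gbp9. Without the 3 libraries of number 1, 30 members were called, 29 of them among the same 32. With the libraries of numbers 4 and 5 alone, 13 were called, 12 higher in EVP. When EVP replicates 4 and 5 and TA replicate 4, which had the highest summed pan-leukocyte markers of their populations, were left out, 27 were called, 26 of them among the same 32. Both of these settings were chosen after seeing the data. The calls lost in the second were those of Stat2, Ifit1bl2, Ifitm6, Ifi30, Mx2 and Gbp9. Each of the 28 members was higher in EVP than in D in the libraries of all 5 replicate numbers. This adds no support, because the 28 were chosen by this same difference.

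**Figure D2:**
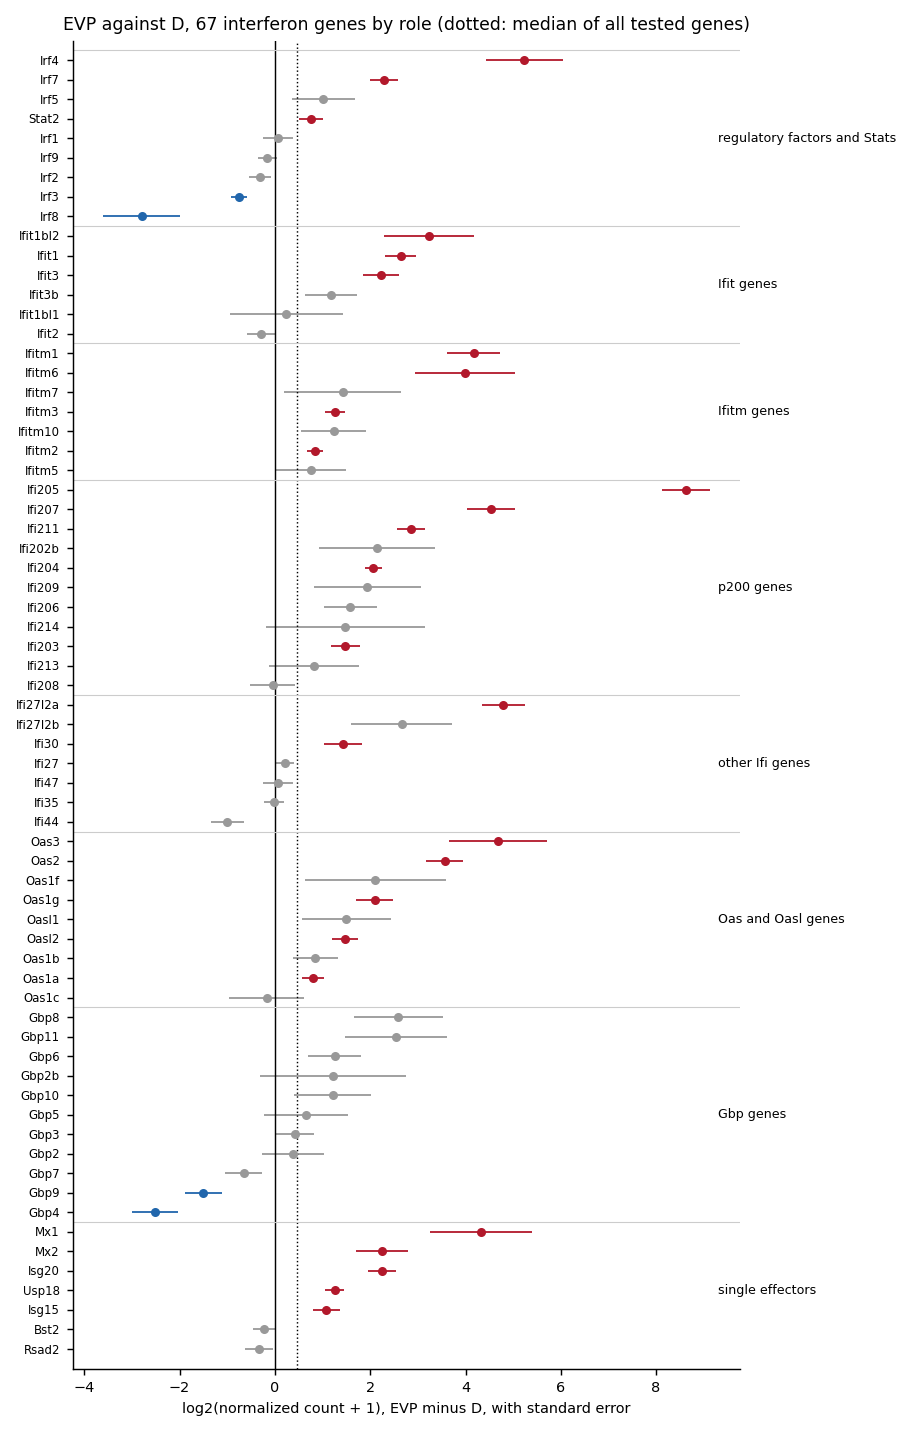
Difference between EVP and D in log2(normalized count + 1), with its standard error, for 67 of the 69 interferon genes, ordered by role. Red points passed the test as higher in EVP (27 of the genes shown), blue points as higher in D (4 genes), and grey points did not pass. The dotted line at 0.46 is the median of all genes tested.

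The regulatory factors and Stats moved in different directions, with 4 of 11 higher in EVP than in D and 2 higher in D. The shares over all genes tested were 11.6% and 7.46%. Irf7, the factor that amplifies type I interferon production and is itself induced by interferon, had the highest mean per kilobase of exon in this group. It was at 2574, 7081, 4434, 4169.6 and 2242 normalized counts in the 5 EVP libraries, 1193, 2782, 1471, 1512 and 1277 in TA, and 589, 798, 898, 1022 and 615 in D. Every EVP library lay above every D library, and every TA library lay above every D library. The difference between EVP and D was 2.29 ± 0.30 (SE) on the log2 scale (adjusted p = 1.60e-05), that between EVP and TA 1.26 ± 0.30 (adjusted p = 0.0239), and that between TA and D 1.03 ± 0.30 (adjusted p = 0.0285). Leaving out TA replicate 2, the highest TA library, or D replicate 1, 2 or 5 ended the call between TA and D (adjusted p up to 0.0769). The call between EVP and TA was lost without EVP replicate 2, 3 or 4 or TA replicate 1 or 3 (adjusted p up to 0.0755). Stat2, a part of the type I complex, averaged 2436 ± 598 in EVP (SD, n = 5), 1244 ± 417 in TA and 1448 ± 331 in D, and was called against both other populations by small margins (0.75 ± 0.25, adjusted p = 0.0412, against D and 1.01 ± 0.25, adjusted p = 0.0295, against TA). Both Stat2 calls were lost without EVP replicate 2, 3 or 4, the first also without D replicate 1, 4 or 5 and the second without TA replicate 1, and edgeR called neither (adjusted p = 0.0955 and 0.0741). The Stat2 call against D was also lost without EVP replicates 4 and 5 and TA replicate 4 (0.78, adjusted p = 0.0749). Irf9, the DNA-binding partner of the Stats, Irf1, a target and mediator of interferon gamma, and Irf2, its antagonist, differed by -0.16 ± 0.20, 0.06 ± 0.31 and -0.31 ± 0.23 between EVP and D, and none passed. Irf3, the constitutive factor that nucleic acid sensors activate, was lower in EVP (1242 ± 177) and TA (1410.5 ± 250.1) than in D (2115 ± 371), with no overlap between D and either (adjusted p = 0.00369 and 0.0332). Its call between TA and D was lost without TA replicate 3, 4 or 5 or D replicate 2, 3 or 5.

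Of the regulatory factors with roles in single lineages, Irf4 was higher in EVP than in D, and Irf8 was higher in D. Irf4, known from lymphocytes, dendritic cells and pigment cells, was at 140.4, 276, 205, 663 and 96.8 normalized counts in EVP, 13.8, 7.03, 58.0, 236 and 36.1 in TA, and 2.75, 1.63, 7.82, 14.3 and 4.23 in D. All EVP libraries lay above all D libraries, while TA spread across the range between, with TA replicate 4 far above the other TA libraries. The difference between EVP and D was 5.23 ± 0.81 (adjusted p = 1.13e-04), and that between TA and D (2.62 ± 0.81, adjusted p = 0.0418) was lost in 10 of 15 fits that left out a library each.

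Irf8 and Irf5, factors of myeloid and dendritic cells, followed the libraries as much as the populations. Irf8 was at 66.7, 152 and 128 normalized counts in EVP replicates 1 to 3 and at 2313 and 2155 in EVP replicates 4 and 5, while it was at 1421 to 6533 in TA and 1679 to 4166 in D. Irf5 was likewise at 44.2 to 114 in EVP replicates 1 to 3 and at 595 and 576 in replicates 4 and 5, and it was at 228 to 1911 in TA and 54.9 to 136 in D. Thus EVP replicates 4 and 5 lay within the TA range for both genes, and replicates 1 to 3 lay below it. The sum of 7 pan-leukocyte markers was 1234 to 2050.5 in EVP replicates 1 to 3, 7948 and 5682 in EVP replicates 4 and 5, 3168 to 24432 in TA with the highest in TA replicate 4, and 1356 to 2569 in D, and the part of leukocyte RNA in these values was not tested. The sum of 10 macrophage and monocyte markers was 2291 to 3983 in EVP replicates 1 to 3, 7514 and 12440.0 in EVP replicates 4 and 5, 9704 to 44178 in TA and 4865 to 13510.3 in D. Irf8 was called lower in EVP than in D (-2.80 ± 0.81, adjusted p = 0.0203), although the libraries overlapped. The call was lost without EVP replicate 1, 2 or 3 or D replicate 4 (adjusted p up to 0.0646), without number 1 throughout (adjusted p = 0.147), and in edgeR and DESeq2 (adjusted p = 0.265 and 0.150). Irf5 was called higher in TA than in D (2.95 ± 0.66, adjusted p = 0.00600), with no overlap. Between EVP and TA neither passed (adjusted p = 0.135 for Irf5 and 0.0555 for Irf8). Without EVP replicates 4 and 5 and TA replicate 4, a setting chosen after seeing the data, both were called higher in TA. The differences were then -2.71 for Irf5 (adjusted p = 0.0152) and -4.37 for Irf8 (adjusted p = 9.74e-05).

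**Figure D3:**
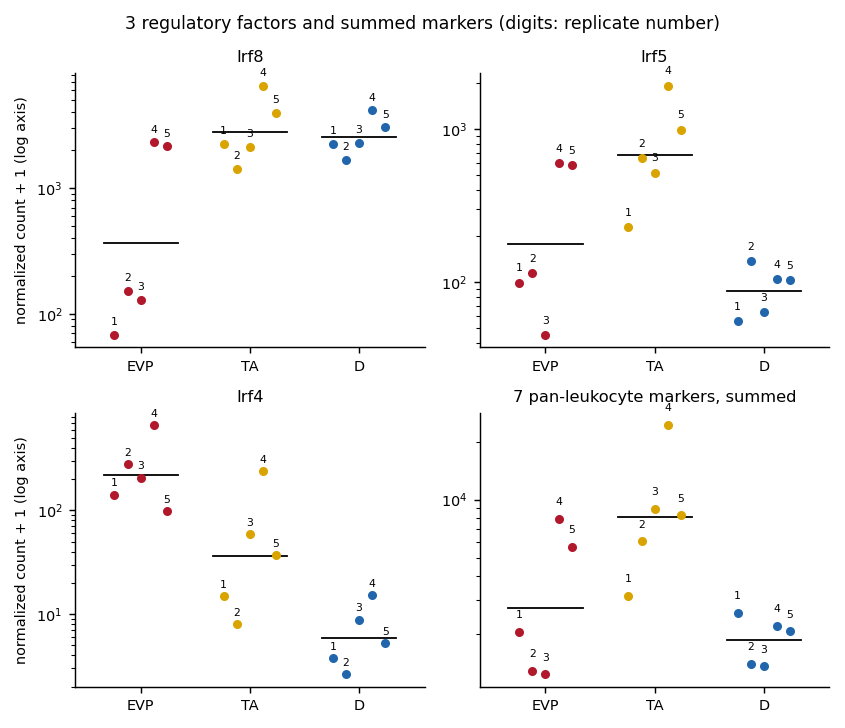
Normalized counts plus 1, on a log axis, of Irf8, Irf5 and Irf4 and of summed pan-leukocyte markers in each library. Points are libraries with their replicate number, and lines are means on the log scale. EVP replicates 4 and 5 lie far above the other EVP libraries for Irf8, Irf5 and the pan-leukocyte sum.

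The products of the 6 Ifit genes bind foreign RNA. Of these genes, 3 were higher in EVP than in D (Ifit1, Ifit1bl2 and Ifit3) and none was higher in D. The shares over all genes tested were 11.6% and 7.46%. The Ifit genes lie on chromosome 19 between 34550694 and 34650009 (GRCm38). Ifit1, with the highest mean per kilobase of exon among them, was at 2261, 5262, 2935, 2148 and 1442 normalized counts in EVP, 1086, 1172, 465, 850.1 and 1111 in TA, and 362, 657, 345, 406 and 335 in D. Every EVP library lay above every TA and every D library, and TA replicate 3 lay below the highest D library. The differences were 2.64 ± 0.32 between EVP and D (adjusted p = 8.87e-06), 1.52 ± 0.32 between EVP and TA (adjusted p = 0.0144) and 1.13 ± 0.32 between TA and D (adjusted p = 0.0280). The call between EVP and TA stood in all 15 fits that left out a library but not without the 3 libraries of number 1 (adjusted p = 0.0902), and that between TA and D was lost in 7 of the 15. Ifit3 was at 1127, 2764, 1351, 1518 and 883 in EVP, 289.6, 702, 219.9, 655 and 773 in TA, and 183, 428, 279, 359 and 316 in D, so that EVP stood apart from the other populations, which overlapped. Its difference was 2.23 ± 0.38 against D (adjusted p = 2.59e-04) and 1.59 ± 0.38 against TA (adjusted p = 0.0249, lost without EVP replicate 2, 3 or 4 or TA replicate 1 or 3). Ifit1bl2, a neighbour of Ifit1, was low, at 112, 54.9, 35.2, 45.6 and 20.7 in EVP, 55.2, 6.15, 42.4, 24.3 and 14.9 in TA, and 34.3, 0, 0, 14.3 and 4.83 in D. Its libraries overlapped, the call was lost without EVP replicate 1 or D replicate 2 or 3, and neither edgeR nor DESeq2 called the difference from D (3.23 ± 0.95, adjusted p = 0.0225 in limma, 0.247 and 0.0908 in these). The limma call was also lost without EVP replicates 4 and 5 and TA replicate 4 (3.61, adjusted p = 0.0656). Ifit3 and Ifit3b share 40.7% and 35.3% of their 76-base sequences with other genes, chiefly each other, so that their counts are uncertain. Ifit3b did not overlap between EVP (183 ± 18.4) and D (84.2 ± 29.9) but did not pass the test (adjusted p = 0.156). Ifit2 did not follow Ifit1 and Ifit3. It averaged 659 ± 209.9 in EVP, 784 ± 182 in TA and 837 ± 331 in D. The difference between EVP and D was -0.29 ± 0.30 (adjusted p = 0.641).

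The Ifitm genes, which encode small membrane proteins that hinder virus entry, included the most abundant member. Ifitm3 had 22429 normalized counts per kilobase of exon over all libraries, ahead of Ifi27l2a (5634), Bst2 (3751) and Ifitm2 (3046). It was at 19879.8, 31165, 20432, 27221 and 19313 normalized counts in EVP, 10853, 16746, 8871, 9201 and 14795 in TA, and 9029.5, 10923, 7115, 13842 and 8712 in D. The lowest EVP library lay above the highest library of the other populations, which overlapped each other. The difference was 1.26 ± 0.21 against D (adjusted p = 2.41e-04) and 0.98 ± 0.21 against TA (adjusted p = 0.0148), and the second was lost without EVP replicate 2 (adjusted p = 0.0531). Ifitm2 had the same order at a lower level, 2753 ± 529 in EVP, 1711 ± 245 in TA and 1521 ± 207 in D (adjusted p = 0.00114 against D and 0.0315 against TA), but 41.7% of its 76-base sequences are shared with an overlapping gene model. Ifitm1 had another pattern. It was at 316, 434, 218, 881 and 524 in EVP, 107, 622, 221, 987 and 422 in TA, and 32.9, 38.4, 11.7, 35.3 and 10.9 in D. EVP and TA covered the same range, both above all D libraries, with differences from D of 4.17 ± 0.56 (adjusted p = 2.60e-05) and 3.94 ± 0.56 (adjusted p = 1.40e-04). Ifitm6, known from myeloid cells, was at 21.1, 52.3, 17.2, 163 and 102 in EVP, 0, 36.0, 31.3, 97.2 and 24.3 in TA, and 2.75, 0, 3.91, 3.76 and 3.02 in D. Its highest EVP libraries, numbers 4 and 5, and its highest TA library, number 4, were those with the highest pan-leukocyte sums, and the call between EVP and D (3.99 ± 1.04, adjusted p = 0.0102) was lost without these 3 libraries, where the difference was 3.10 (adjusted p = 0.113). Ifitm5, Ifitm7 and Ifitm10 had means under 50 in every population and did not pass in any comparison.

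The p200 genes, which encode DNA sensors and nuclear regulators, lie on chromosome 1 between 173468485 and 174031810, and they showed the member with the greatest difference. Of 11, 5 were higher in EVP than in D (Ifi205, Ifi207, Ifi211, Ifi204 and Ifi203), and none was higher in D. The libraries of these 5 did not overlap. Over all genes tested, 11.6% were called higher in EVP, 7.46% were called higher in D and 17.7% did not overlap. Ifi205 was at 8068, 20356, 9571, 23068 and 6047 normalized counts in EVP, 1965, 7366, 2557, 6985 and 3575 in TA, and 87.9, 22.0, 36.0, 12.8 and 20.5 in D. The lowest TA library was more than 20 times the highest D library, whereas EVP and TA overlapped. The differences were 8.63 ± 0.50 between EVP and D (adjusted p = 1.88e-09), 7.05 ± 0.50 between TA and D (adjusted p = 6.43e-08) and 1.58 ± 0.50 between EVP and TA (adjusted p = 0.0993). Ifi207 was at 1548, 3683, 3107, 2970 and 1589.7 in EVP, 252, 1210.5, 662, 1482 and 1034 in TA, and 192, 30.2, 135, 101 and 146 in D. The 3 populations did not overlap at all, but only the differences from D passed (4.54 ± 0.50, adjusted p = 2.78e-06, for EVP, and 2.92 ± 0.50, adjusted p = 7.08e-04, for TA), with an adjusted p of 0.0896 between EVP and TA. Ifi203 was at 2697, 3766, 2556, 2938 and 1537 in EVP, 403, 1275, 1135, 1151 and 956 in TA, and 678, 799, 1138, 1181 and 939 in D. Here TA and D covered the same range (-0.02 ± 0.30), and EVP lay above both (2.85 times the mean of D, adjusted p = 0.00137, and 2.74 times that of TA, adjusted p = 0.0101). Ifi204 stood between these patterns, at 5265 ± 1315 in EVP, 1884 ± 369 in TA and 1237 ± 128 in D, and all 3 differences passed. That between EVP and TA had the smallest adjusted p of any member (1.47 ± 0.18, adjusted p = 7.22e-04) and held without number 1 (adjusted p = 0.0264), while that between TA and D was lost in 7 of 15 fits without a library. Ifi211 averaged 1610 ± 435, 684 ± 222 and 229 ± 79.4, but 63.3% of its 76-base sequences occur in other genes, chiefly Ifi205. Ifi208, whose core is that of Ifi203 and Ifi207, was at 156 ± 80.8 in EVP, 141 ± 54.4 in TA and 162 ± 83.1 in D. Ifi202b, Ifi206, Ifi209, Ifi213 and Ifi214 had means of 280 or less in every population and did not pass in any comparison.

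Among the other Ifi genes, Ifi27l2a and Ifi30 were higher in EVP and in TA than in D, and none passed between EVP and TA. Ifi27l2a, a small mitochondrial protein gene, was at 4094, 12181, 4089, 4469 and 3275 normalized counts in EVP, 1007, 4966, 2128, 841 and 1125 in TA, and 291, 188, 228, 146 and 98.5 in D. EVP replicate 2 stood far above its group and TA replicate 2 reached into the EVP range, while D lay below all others. The differences from D were 4.79 ± 0.45 for EVP (adjusted p = 5.27e-07) and 3.15 ± 0.45 for TA (adjusted p = 1.45e-04). Ifi30, a lysosomal thiol reductase of antigen-presenting cells, was at 365, 233, 196, 599 and 606 in EVP, 279, 385, 263, 903 and 697 in TA, and 159, 104, 99.3, 187 and 136 in D. Again EVP replicates 4 and 5 and TA replicates 4 and 5 were highest, as for Irf5. The difference between EVP and D (1.43 ± 0.40, adjusted p = 0.0156) was lost without EVP replicate 4, and it was 0.93 (adjusted p = 0.134) when EVP replicates 4 and 5 and TA replicate 4 were left out. Ifi27, which neighbours Ifi27l2a on chromosome 12, did not share its pattern, at 2211 ± 496 in EVP, 2414 ± 544 in TA and 1878 ± 214 in D. Ifi35 and Ifi47 differed by -0.01 ± 0.21 and 0.06 ± 0.31 between EVP and D. Ifi44 was lower in TA (519 ± 193) than in D (945 ± 156) with no overlap, but the difference did not pass (-0.95 ± 0.35, adjusted p = 0.0895).

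The Oas enzymes make the messenger that switches on RNase L. Of the 9 Oas and Oasl genes, 5 were higher in EVP than in D (Oas1a, Oas1g, Oas2, Oas3 and Oasl2). The share over all genes tested was 11.6%. The Oas genes lie on chromosome 5 between 120730333 and 120907521. Oas2 was at 955, 1858, 1396, 1170.1 and 571 normalized counts in EVP, 241, 731, 371, 273 and 164 in TA, and 113, 76.7, 144, 104 and 53.2 in D. D lay below both other populations, and TA replicate 2 alone entered the EVP range. The differences were 3.56 ± 0.39 between EVP and D (adjusted p = 3.01e-06), 1.82 ± 0.39 between EVP and TA (adjusted p = 0.0157) and 1.74 ± 0.39 between TA and D (adjusted p = 0.00629). The call between EVP and TA was lost without EVP replicate 2 or 3 (adjusted p up to 0.0568). Oas3 was at 147, 532, 269, 218 and 118 in EVP, 1.72, 261, 12.3, 123 and 101 in TA, and 22.0, 0.816, 14.1, 12.8 and 4.83 in D. TA libraries lay in both the EVP and the D range, and only the difference between EVP and D passed (4.68 ± 1.03, adjusted p = 0.00300). Oas1a, with the highest mean per kilobase of exon in the family, was at 674, 1633, 1006, 1002 and 783 in EVP, 491, 602, 425, 592 and 528 in TA, and 664, 426, 641, 601 and 507 in D. All EVP libraries lay above the others by a narrow margin (adjusted p = 0.0191 against D and 0.0379 against TA), and both calls were lost without EVP replicate 2, the first also without D replicate 2 and the second in 8 of 15 fits without a library. Oas1g averaged 253 ± 98.2 in EVP, 131 ± 52.4 in TA and 60.5 ± 24.6 in D. Oas1a and Oas1g share 47.3% and 36.6% of their 76-base sequences with other genes, chiefly each other, so that their counts are uncertain. Oasl2 averaged 3292 ± 711 in EVP, 1450 ± 710 in TA and 1175 ± 139 in D (adjusted p = 7.08e-04 against D and 0.0139 against TA, the second lost without EVP replicate 2). Oasl1 did not overlap between EVP (438 ± 158) and D (151 ± 43.4) but did not pass (adjusted p = 0.345).

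The Gbp genes, guanylate binding proteins, were the group in which the 2 members called between EVP and D were higher in D. None of 11 passed as higher in EVP than in D, and Gbp4 and Gbp9 passed as lower. Over all genes tested, 11.6% were called higher in EVP and 7.46% lower, and counts this small were not tested against these shares. The differences of 8 of the 11 were nevertheless above 0, with a median of 0.66 on the log2 scale, against 0.46 over all genes tested. Gbp4 was at 312, 418, 272, 603 and 283 normalized counts in EVP, 279, 966, 233, 1153 and 374 in TA, and 670, 2954, 2229, 3295 and 2571 in D. D lay above all EVP libraries, and D replicate 1, the lowest, lay within TA. The differences were -2.51 ± 0.48 between EVP and D (adjusted p = 7.72e-04) and -2.08 ± 0.48 between TA and D (adjusted p = 0.00651). Gbp9 was at 446, 904, 488, 455 and 341 in EVP, 410.2, 249, 913, 824 and 241 in TA, and 736, 1941, 1784, 1508 and 1472 in D. Its D libraries also stood above the rest except for number 1 (-1.50 ± 0.39, adjusted p = 0.00980, against EVP, and -1.65 ± 0.39, adjusted p = 0.00839, against TA), and the call against EVP was lost without EVP replicates 4 and 5 and TA replicate 4, where the difference was -1.28 (adjusted p = 0.0679). Gbp4, Gbp8 and Gbp9 overlap on chromosome 5 between 105014150 and 105139586, with 0.814% to 1.77% of their exon bases shared. Gbp7, in the second cluster on chromosome 3 (142493978 to 142638008), averaged 1309.7 ± 387 in EVP, 917 ± 499 in TA and 2184 ± 875 in D, and was called between TA and D (-1.30 ± 0.38, adjusted p = 0.0303), a call lost in 6 of 15 fits without a library and in edgeR (adjusted p = 0.0550). Gbp2, the member of the family with the highest mean per kilobase of exon and a known target of interferon gamma, was at 1387, 2533, 1051, 2896 and 1679.5 in EVP, 796, 1137, 199, 2525 and 1328 in TA, and 289.7, 1323, 1155, 4248 and 2533 in D. The ranges of the 3 populations overlapped, with the widest spread in D, and it did not pass in any comparison (0.38 ± 0.65 between EVP and D). Gbp3 was at 1036, 3112, 1841, 2053 and 1389.8 in EVP, 669, 353, 305, 1399 and 968 in TA, and 677, 1569.9, 1410.1, 1838 and 1401 in D. It was the single Gbp gene called between EVP and TA (1.49 ± 0.40, adjusted p = 0.0498), with overlapping libraries, and the call was lost in 11 of 15 fits without a library. The other Gbp genes had means of 198 or less in every population, and Gbp6 and Gbp10 share 67.2% and 77.6% of their 76-base sequences with other gene models. Under scaling to the same total and under quantile normalization the differences of Gbp4 and Gbp9 between EVP and D kept their sign.

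Of the 7 single effectors, 5 were higher in EVP than in D (Isg15, Isg20, Mx1, Mx2 and Usp18). None of these 5 overlapped between EVP and D, and Bst2 and Rsad2 did not pass. Over all genes tested, 11.6% were called higher in EVP and 17.7% did not overlap. Usp18, which removes Isg15 from proteins and dampens the type I receptor, was at 1503, 2038, 1905, 1696 and 1129.8 normalized counts in EVP, 1275, 777, 775, 856 and 783 in TA, and 601, 843, 639, 735 and 603 in D. TA replicate 1 reached into the EVP range and the other TA libraries lay just above or among those of D. The differences from EVP passed against D (1.25 ± 0.20, adjusted p = 1.41e-04) and against TA (0.89 ± 0.20, adjusted p = 0.0190), the second also without number 1 (adjusted p = 0.0445) but not without EVP replicate 2 or 3. Isg20, an RNA exonuclease, was at 365, 708, 731, 531 and 615 in EVP, 281, 583, 269, 375 and 351 in TA, and 87.9, 148, 207, 85.6 and 106 in D. It was the effector called between TA and D (1.57 ± 0.30, adjusted p = 0.00192) as well as between EVP and D (2.25 ± 0.30, adjusted p = 2.40e-05), with D below all others. Isg15, the ubiquitin-like protein that interferon induces, averaged 1017 ± 489 in EVP, 538 ± 142 in TA and 468 ± 156 in D (1.08 ± 0.29 between EVP and D, adjusted p = 0.0130). Mx1 and Mx2 encode dynamin-like antiviral GTPases, and C57BL/6 mice are known to carry inactive alleles of both. Mx1 was at 267, 257, 130.1, 241 and 194 in EVP, 93.1, 145, 2.23, 317 and 148 in TA, and 20.6, 32.7, 22.7, 6.76 and 0 in D. Mx2 was at 154, 261, 69.5, 254 and 170.1 in EVP, 36.2, 51.9, 204, 143 and 51.1 in TA, and 12.4, 39.2, 35.2, 63.9 and 39.3 in D. For both genes EVP and D did not overlap (4.32 ± 1.07, adjusted p = 0.00712, and 2.25 ± 0.55, adjusted p = 0.00622), and TA spread over both. The Mx2 call was lost without EVP replicates 4 and 5 and TA replicate 4 (2.03, adjusted p = 0.0635). Bst2, or tetherin, which holds budding viruses at the membrane, was at 3434, 4463, 2135, 3839 and 3275 in EVP, 3883, 3008, 2804, 1975 and 1996 in TA, and 3616, 3657, 2881, 6005 and 3835 in D. Its levels covered the same range in the 3 populations (-0.22 ± 0.24 between EVP and D, adjusted p = 0.660). Rsad2, or viperin, averaged 407 ± 116 in EVP, 422 ± 64.6 in TA and 535 ± 202 in D (-0.34 ± 0.29, adjusted p = 0.537).

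**Figure D4:**
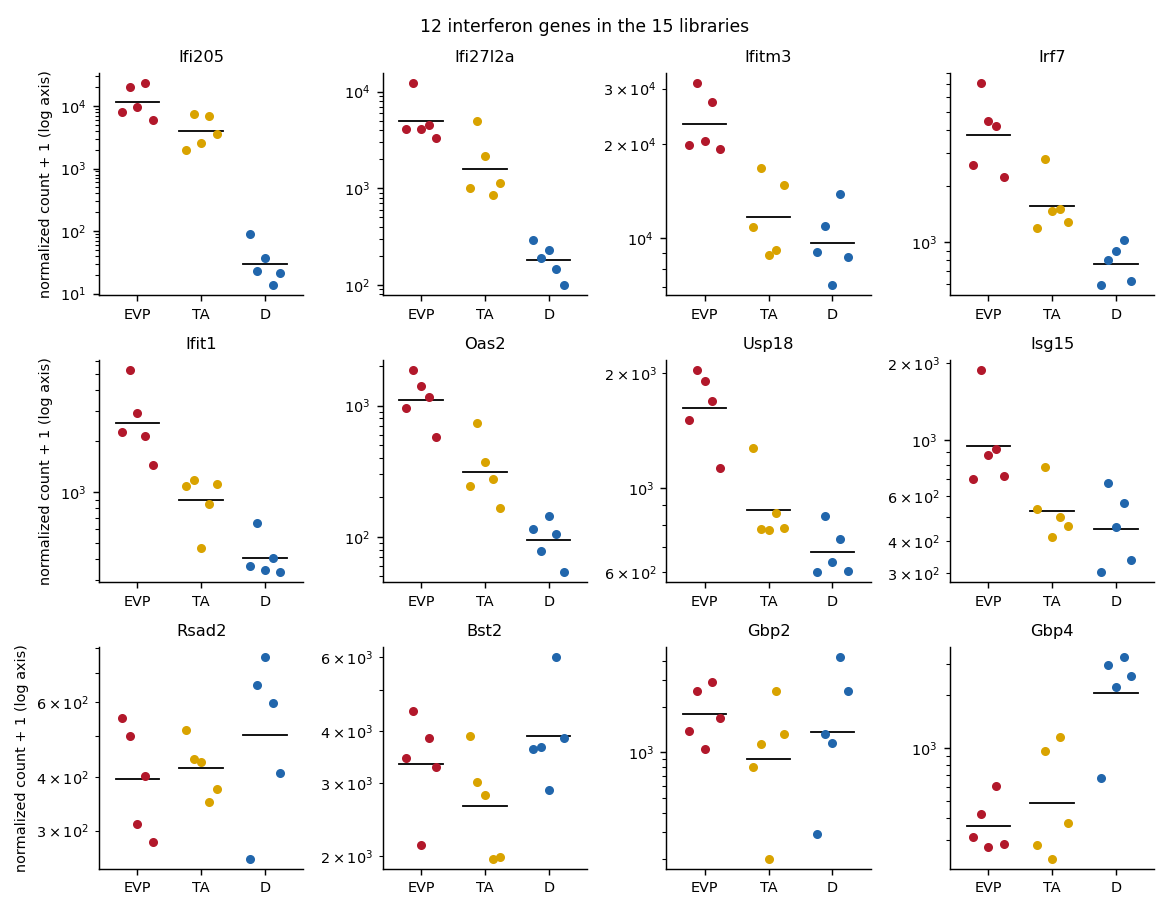
Normalized counts plus 1, on log axes that differ between panels, of 12 interferon genes in the 15 libraries, with EVP in red, TA in yellow and D in blue and a line at the mean on the log scale. Ifi205, Ifi27l2a and Oas2 lie lowest in D, Rsad2, Bst2 and Gbp2 overlap between all 3 populations, and for Gbp4 the D libraries other than number 1 lie above all others.

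The remaining comparisons asked where TA stood between the others. They share libraries with the first and with each other, so their counts are not independent. Between EVP and TA, 14 members were higher in EVP (20.3%, against 1.56% of all genes tested) and none was higher in TA (against 1.94%), with 3.50% of all genes called in either direction. The 14 were Irf7, Stat2, Ifit1, Ifit3, Ifitm2, Ifitm3, Ifi203, Ifi204, Ifi211, Oas1a, Oas2, Oasl2, Gbp3 and Usp18. Beside the 0 called higher in TA, edgeR and DESeq2 also called 0, and 29 members had an unadjusted p under 0.05 in either direction. Irf5 and Irf8 were called higher in TA without EVP replicates 4 and 5 and TA replicate 4, and with the replicate number as a block. With a minimum mean of 20, 1087 of 16661 genes were called between EVP and TA. For 11 members the libraries did not overlap, against 4.29% of all genes. These calls rested on few libraries: 3 remained without EVP replicate 2, 6 without EVP replicate 3, 7 of 8 were the same without EVP replicate 4, 7 remained without TA replicate 1, 8 without TA replicate 3, and 2 (Ifi204 and Usp18) without the 3 libraries of number 1. Without number 1, 104 genes were called over the whole table, against 893 with it. The median difference of the members between EVP and TA was 0.73, and it stayed at 0.72 without number 1, against 0.09 and -0.05 over all genes tested.

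Between TA and D, 14 members were higher in TA (20.3%, against 8.21% of all genes tested) and 4 were higher in D (5.80%, against 4.31%), with 12.5% of all genes called in either direction. Among the 14 were Irf4, Irf5, Irf7, Ifit1, Ifitm1, Ifi204, Ifi205, Ifi207, Ifi211, Ifi27l2a, Ifi30, Oas2 and Isg20, and the 4 were Irf3, Gbp4, Gbp7 and Gbp9. With a minimum mean of 20, 3444 of 16661 genes were called between TA and D. For 14 members the libraries did not overlap, against 9.25% of all genes. The median difference of the members between TA and D was 0.27, against 0.24 over all genes tested, and 0.27 against -0.10 after quantile normalization. Of the 28 members higher in EVP than in D, 23 had a TA mean between the EVP and D means on the log scale. Such a position is likely for any gene chosen by a difference between EVP and D. Its share over all genes called higher in EVP was not computed. The TA mean lay nearer to that of D, or below it, for 14 of the 28. It lay below D for Ifi203, Oas1a and Stat2 and above EVP for Ifi30, among others.

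Summed over all 69 members, normalized counts came to 104378 ± 30041 in EVP (SD, n = 5), 59209 ± 11695 in TA and 51510 ± 10211 in D, and every EVP library (77399 to 145778) lay above every TA and D library (39218 to 74195). The p200 genes made up 19.0% to 30.7% of it in EVP, 10.4% to 19.3% in TA and 4.21% to 7.53% in D. Much of this was Ifi205 alone. It averaged 13422 of a mean p200 sum of 26389.7 in EVP, 4489.5 of 9703 in TA and 35.8 of 2977 in D. The Gbp genes made up 5.55% to 6.60% in EVP and 8.58% to 21.9% in D. The regulatory factors and Stats summed to 13707 ± 3558 in EVP, to 12757 ± 3086 in TA and to 12036 ± 1923 in D, with overlapping libraries. These sums weigh long and abundant genes most.

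**Figure D5:**
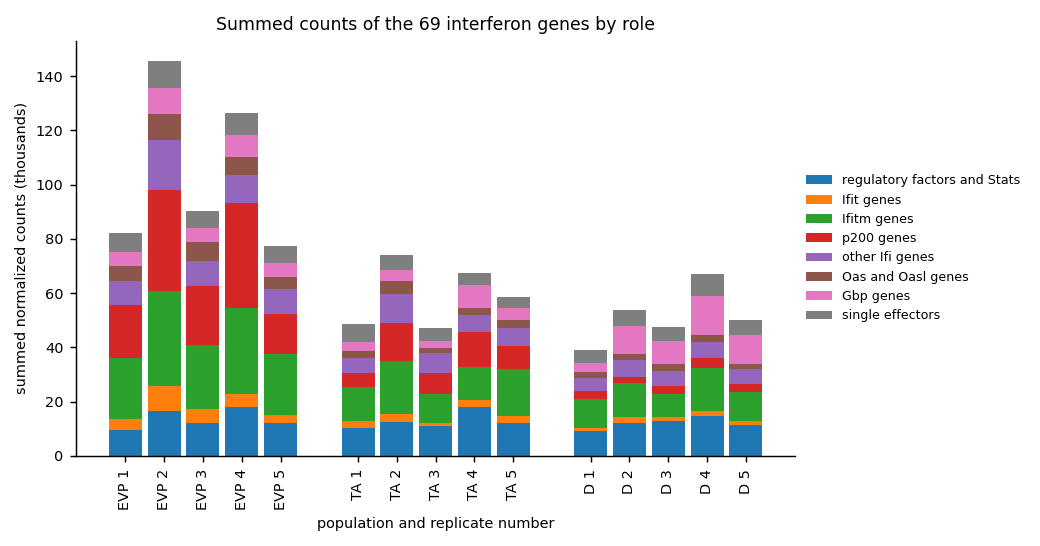
Summed normalized counts of the 69 interferon genes in each library (the axis is in kilocounts), stacked by role group. The 5 EVP libraries reach 77399 to 145778, above the other 10, and the p200 genes fill a larger part of the EVP bars and the Gbp genes a larger part of the D bars.

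Within EVP, the members were not spread evenly over the libraries. EVP replicate 2 held the highest EVP value for 35 of the 69 members and for 17 of the 28 higher in EVP than in D, whereas over all genes tested it was the highest in 13.0%. EVP replicate 1 held the highest value for 51.4% of all genes tested but for 15 members. In TA, replicate 2 was the highest for 23 members (20.1% of all genes) and replicate 4 for 21 (12.5% of all genes). In D, replicate 4 was the highest for 26 members (13.1% of all genes), among them Irf1, Irf8, Gbp2, Gbp4 and Bst2. EVP replicate 2 had the highest summed fibroblast markers of all libraries (1446099), and whether the 2 measures are linked was not tested.

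Of the genes around the members in the pathway, the ligands were hardly detected. Of 21 interferon genes, 10 were at 0 in all libraries of EVP, and 1, Ifng, reached a mean of 5; their summed counts were 0 to 98.3 per library. Of 9 receptor and kinase genes, Ifnlr1 was called higher in EVP than in D, at means of 15.2 and 0.438 normalized counts, Ifnar1 was lower (1986 ± 295 against 2738 ± 239, adjusted p = 0.0443) and Il10rb was lower (1105 ± 165 against 1816 ± 249, adjusted p = 0.00802). Among all genes tested, 11.6% were called higher in EVP and 7.46% lower. Jak1, the kinase that all interferon receptors share, was higher in EVP than in TA (8493 ± 1606 against 5386 ± 692, adjusted p = 0.0229). Of 17 tested sensors and adaptors of nucleic acid, 4 were higher in EVP than in D and 2 were lower, against 11.6% and 7.46% of all genes tested. Zbp1, a sensor of left-handed nucleic acid, was at 2261 ± 738 in EVP, 606 ± 279 in TA and 194 ± 176 in D (3.90 ± 0.48 between EVP and D, adjusted p = 8.88e-06). Ikbke, a kinase that activates Irf3 and Irf7, was at 509 ± 131, 146 ± 151 and 34.1 ± 12.4 (3.94 ± 0.72, adjusted p = 5.85e-04). Tlr3, the endosomal receptor for double-stranded RNA, was lower in EVP (371 ± 87.6 against 863 ± 96.2, adjusted p = 0.00121).

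Downstream of the receptors, 10 of 40 further interferon-stimulated genes were higher in EVP than in D and 1 was lower, against 11.6% and 7.46% of all genes tested. The median difference of these 40 was 0.33 on the log2 scale. Over all genes tested it was 0.46 in the same 15 libraries. Without EVP replicate 1 it was 0.00 over all genes tested, and the median of the 40 was not computed there. Slfn8 (455 ± 97.7 in EVP and 40.4 ± 32.9 in D, adjusted p = 5.95e-04), Phf11b (659.8 ± 257 and 83.1 ± 34.3, adjusted p = 5.37e-05) and Apol9a (439 ± 153 and 63.9 ± 20.3, adjusted p = 7.16e-05) had the largest ratios of means, and Lgals9 was lower in EVP (5542 ± 1344 and 9213 ± 1983, adjusted p = 0.0214). Between TA and D, 4 of the 40 were higher in TA and 5 were higher in D, against 8.21% and 4.31% of all genes tested. Of 9 immunity-related GTPases found in the table, Irgm2 was higher in EVP than in D (1635 ± 599 and 655 ± 289.7, adjusted p = 0.0273) and Tgtp1 was lower (26.7 ± 32.8 and 345 ± 235, adjusted p = 0.0211). Among all genes tested, 11.6% were called higher in EVP and 7.46% lower. Of 8 brakes on the response, 3 were higher in EVP than in D and 0 were lower, against 11.6% and 7.46% of all genes tested. Socs3, an inhibitor of Jak kinases that interleukin-6 and other cytokines also induce, was at 7956 ± 1864 in EVP, 3293 ± 932 in TA and 1442 ± 422 in D (2.48 ± 0.23 between EVP and D, adjusted p = 5.16e-07). Socs1, the inhibitor most tied to interferon, was at 556 ± 161, 184 ± 93.0 and 107 ± 43.4 (2.37 ± 0.44, adjusted p = 6.57e-04), and Cish was at 119 ± 31.3, 111 ± 45.1 and 43.2 ± 31.3 (1.79 ± 0.52, adjusted p = 0.0208).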

How the data were processed

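Libraries came from a Smart-Seq2 protocol that the authors had modified. STAR 2.5.3a aligned the reads to GRCm38, HTSeq-count gave reads per gene, and DESeq2 1.10.1 normalized them. What the authors deposited is thus a signal, reads divided by a size factor of the library (normalized counts). Dividing each library by the value of 1 read gave whole numbers for 100.0% of values (tolerance 0.001 reads). The authors' deposited comparison tables, with fold changes and p-values, were not used. The protocol does not mark strand. Tests used limma 3.58.1 (R 4.3.3) on log2(normalized count + 1), with a trend, in 1 fit of 15 libraries over 25549 genes with a mean of at least 5, two-sided, and Benjamini-Hochberg adjusted p under 0.05 was the threshold. The fit was tested on simulated counts without the differences by replicate number described above, so that test does not cover them. Values after ± are SDs (n = 5) for levels and SEs for differences. Folds are ratios of means. Alternatives were edgeR 4.0.16 and DESeq2 1.42.0 on whole reads, other pseudocounts, minimum means, scalings and weights, and fits without libraries. Members were described by role, and the value in every library is given for the member of each role with the highest mean per kilobase of exon, the 2 with the largest called difference between EVP and D, and the 1 with the largest in each other comparison. Of the pathway lists, called genes with the largest fold are named, and Lgals9 and Jak1 were named after their values were seen. Members and lists were chosen with earlier results of these data known. Exon lengths and 76-base sequences came from GENCODE M21, promoters from RefSeq. Results for some members are not reported here, although counts over all members include them.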

Additional observations from a re-analysis of the deposited data

Results flagged for a closer look

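Of 78 groups of 5 libraries examined, those of the genes given in every library, 6 held a library that lay far from the other 4. Chance gives about 1 in 20 groups. The libraries were TA replicate 2 for Irf7 (2782 normalized counts), TA replicate 4 for Irf4 (236), D replicate 2 for Ifit1 (657), EVP replicate 2 for Ifi27l2a (12181), EVP replicate 2 for Gbp9 (904) and TA replicate 1 for Usp18 (1275). Each was the highest of its group.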

How the results depend on the processing

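Between EVP and D, 32 interferon genes were called, 27 to 40 under the other settings, except that the libraries of numbers 4 and 5 alone, a choice made after seeing the data, gave 13, and leaving out 1 library gave 30 to 34. Between TA and D, 18 were called, 14 to 26 under the other settings, 7 with numbers 4 and 5 alone and 12 to 22 with 1 library left out. Between EVP and TA, 14 were called, and the number fell to 9 with scaling to the same total, 9 in edgeR, 7 with only the 2 populations in the fit, 2 without number 1 and 8 (6 of them among the same 14) without EVP replicates 4 and 5 and TA replicate 4, chosen after seeing the data. Those of the 8 not among the 14 were Irf5 and Irf8, both higher in TA. The number called between EVP and TA was 0 with numbers 4 and 5 alone in limma, where 16 members had an unadjusted p under 0.05. It was 3 to 14 with 1 library left out. No called difference of a member changed sign in any of these fits. The cause of these falls was not tested. Same-numbered libraries did not all deviate together from their population means (correlations from -0.14 to 0.69), so the numbers were not taken as pairs, although in 12 of 15 cases a library correlated best with the one of its own number, a hint from the data and not from the design. With the number as a replicate block, 36 members were called between EVP and D, 19 between EVP and TA and 23 between TA and D. The calls it added included Gbp6 and Gbp11 as higher in EVP than in D and Ifi44 as lower, Ifi27l2a, Irf4 and Isg15 as higher in EVP than in TA, Irf5 and Irf8 as higher in TA than in EVP, and Ifi202b, Oas1f and Oas1g as higher in TA than in D and Ifi44 as lower. The longer form of the response core, with 1 more A, was found in 55.8% of member promoters. A gene that averaged a few reads per library, such as Irf4 in D, has a difference set in part by the pseudocount.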
